A study of Capra hircus with 20 samples.

Results

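The WNT ligands WNT5A, WNT5B and WNT2, the secreted antagonists SFRP1, SFRP2, SFRP4, DKK1, DKK2 and DKK3, and the feedback target AXIN2 were followed in goat preadipocytes and adipocytes of both depots. These 10 genes were taken by symbol from the mRNA table of 20587 genes, and their 14 transcripts of 43766 were summed per gene. WNT5A and AXIN2 were each the sum of 3 transcripts and the other members had 1. RNA came from cultured cells of the longissimus dorsi muscle and of subcutaneous fat of male Jianzhou Daer goats, 7 days old, of which the study used 5. Intramuscular preadipocytes (IMPA) and subcutaneous preadipocytes (SPA) were harvested at day 0, before induction. Intramuscular adipocytes (IMA) and subcutaneous adipocytes (SA) were harvested at day 3 of induction with oleic acid in medium with serum. Each of the 4 groups had 5 libraries, 20 in all. None of the 4 groups was kept to day 3 without induction, so induction and time in culture cannot be told apart. No transgene, deletion or other agent was used in any group, and the cells were passaged primary cultures rather than a sorted cell type. Values are FPKM, fragments normalised to the length of the transcript and to all mapped fragments of the library, so levels of different genes can be set side by side on this scale.

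WNT proteins are lipid-modified signals that leave the cell with the carrier WLS and bind Frizzled receptors on neighbouring cells. With the co-receptors LRP5 and LRP6 they stabilise beta-catenin (the canonical arm), and with receptors such as ROR2 they act on cell polarity, movement and calcium (the non-canonical arm). SFRP proteins bind WNT ligands outside the cell, and DKK1 and DKK2 bind LRP5 and LRP6. Canonical WNT signals are known to hold back fat cell formation, and the same pathway takes part in the growth and repair of muscle.

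The libraries had FPKM sums of 527426 to 596669 over all transcripts, and 15126 to 16961 genes were above 0 in a library. How many fragments a value rests on is unknown, so no counting interval can be given, and a value of 0 says only that a member is listed at 0. The groups were checked against cell type markers. Of 10 stromal markers, 9 had a mean of at least 1 FPKM in every group, with summed levels of 5689 to 8207 FPKM in IMPA, 7116 to 8051 in IMA, 14090 to 14580 in SPA and 12160 to 12660 in SA. Of the 9 adipocyte markers in the table, 3 had a mean of at least 1 FPKM in IMPA, 2 in IMA, 3 in SPA and 5 in SA. CEBPA and AGPAT2 did so in every group, CIDEC in SPA (4.65 FPKM) and SA (4.35 FPKM), LPL in IMPA and SA, and PPARG in SA. ADIPOQ, PLIN1, PLIN4 and LEP, which mark mature fat cells, stayed under a mean of 1 FPKM in all 4 groups, and LEP was listed at 0 in all 5 SA libraries. The summed adipocyte markers were 18.1 to 19.97 FPKM in IMPA, 13.7 to 15.4 in IMA, 19.3 to 20.8 in SPA and 19.5 to 21.8 in SA. The 11 skeletal muscle markers found in the table summed to 3242 to 3716 FPKM in IMPA and 11200 to 11900 in IMA, against 6.96 to 22.8 in SPA and 7.499 to 9.47 in SA. MYOD1 was listed at 0 in all 5 SPA libraries and CKM in all 5 SA libraries. TNNT3 was an exception, at 5.62 to 7.55 FPKM in SPA and 5.51 to 7.90 in SA, and MYLPF had a mean of 1.35 FPKM in SPA. The other muscle markers stayed under a mean of 1 FPKM in both subcutaneous groups. The intramuscular cultures thus carried muscle transcripts that were low or at 0 in the subcutaneous ones. These sums moved with depot and, in the intramuscular cells, with stage. The part of muscle transcripts in the differences below was not tested, and in bulk RNA fewer cells of a type and less RNA per cell cannot be told apart. No endothelial marker of 6 reached a mean of 1 FPKM in any group, and CD14 was the only one of 5 macrophage and leukocyte markers that did.

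The 2 depots held different ligands. WNT5A and WNT5B were high in intramuscular cells and low in subcutaneous ones, WNT2 was high in subcutaneous cells and low in intramuscular ones, and no library of one depot overlapped the other for any of the 3 genes. During induction both WNT5 genes rose in intramuscular cells.

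WNT5A, a ligand best known for the non-canonical arm, was at 8.63, 9.91, 5.12, 10.3 and 2.61 FPKM in IMPA libraries 1 to 5. It was at 20.7, 19.8, 16.8, 20.8 and 20.1 FPKM in IMA libraries 1 to 5, all above every IMPA library. In SPA the values were 0.269, 0.381, 0.303, 0.308 and 0.311 FPKM, and in SA 0.628, 0.666, 0.525, 0.739 and 0.876 FPKM. The order of the levels was therefore IMA, IMPA, SA and SPA, and no 2 neighbouring groups in it overlapped. IMA was 2.68 times IMPA on the FPKM scale (19.6 ± 1.66 against 7.31 ± 3.33, SD, n = 5 each). On the log2(FPKM + 1) scale used for all tests, which understates the change of low genes, this was a difference of 1.43 (SE 0.26, limma, Benjamini-Hochberg adjusted p = 0.0006). IMPA exceeded SPA by 2.54 (SE 0.26, limma adjusted p = 1.7e-06) and IMA exceeded SA by 3.61 (SE 0.07, limma adjusted p = 5.7e-15). On the FPKM scale these were 23.2 and 28.6 times. WNT5A reached the mean of 1 FPKM needed for a test through the intramuscular groups alone. Its depot calls were therefore bound to occur, and the depot levels are a description.

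The spread of WNT5A within IMPA was wide. IMPA 5 and IMPA 3, the lowest and next lowest for WNT5A, were also the libraries with the highest and next highest share of mapped reads in the study's alignment summary, and the lowest and next lowest in the sum of stromal markers (5689 and 6127 FPKM). Their skeletal muscle sums were the highest of the group (3716 and 3714 FPKM, against 3242 to 3529 in the other 3). Without both, the difference between IMA and IMPA was 0.96 (limma adjusted p = 3.8e-06). With the mapped share as a covariate it was −0.84 (limma adjusted p = 0.52), so the call was lost and the sign turned. The mapped share did not overlap between the groups in any of the 4 pairs compared here, so that stage or depot and mapped share cannot be told apart in these libraries.

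In subcutaneous cells WNT5A rose by 0.36 (SE 0.05, limma adjusted p = 0.00012) from SPA to SA, 2.18 times on the FPKM scale, with both groups under 1 FPKM. This call was lost when all 4 groups shared the variance estimate (limma adjusted p = 0.15), with the mapped share as a covariate (adjusted p = 0.091) and when transcripts replaced gene sums (adjusted p = 0.089). The transcripts behind the sum differed between depots. XM_018038231.1 held 90.9% of the WNT5A FPKM in IMPA and 94.2% in IMA, but was listed at 0 in all 5 SPA and in 2 of the 5 SA libraries. In SPA 98.3% of the sum came from XM_018038230.1, at a mean of 0.309 FPKM. Transcripts of one gene share most of their reads, so their split at such levels is uncertain.

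WNT5B, the close relative of WNT5A, had the same order of depots at lower levels. It was at 0.749, 0.929, 0.835, 0.647 and 0.981 FPKM in IMPA and at 2.26, 2.15, 2.34, 2.08 and 2.07 FPKM in IMA. In SPA one library was at 0 and the highest at 0.0774 FPKM, and SA ranged from 0.0290 to 0.117 FPKM. IMPA and IMA did not overlap with each other or with a subcutaneous group, whereas SPA and SA overlapped. With a mean of 0.777 FPKM over the 20 libraries WNT5B was under the minimum of 1 FPKM, so it was compared by a two-sided exact permutation test over all divisions of the 10 libraries, whose smallest possible p is 0.00794. It was higher in IMA than in IMPA by 0.80 (exact p = 0.00794), higher in IMPA than in SPA by 0.81 (exact p = 0.00794) and higher in IMA than in SA by 1.58 (exact p = 0.00794). SA and SPA differed by 0.04 (exact p = 0.254). A limma fit with a minimum of 0.1 FPKM gave adjusted p values of 4.9e-07, 2.3e-08, 1.6e-12 and 0.38 for these comparisons in the same order. WNT5B reached that minimum through the intramuscular groups alone, so its depot calls were bound to occur and the depot levels are a description. The mapped share was a covariate only in fits of genes with a mean of at least 1 FPKM. Neither WNT5B nor the other members under that minimum were checked in this way.

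WNT2, a ligand tied to the canonical arm, showed the opposite depots. Its values were 0.471, 0.543, 0.469, 0.401 and 0.246 FPKM in IMPA, and 0.935, 0.780, 0.636, 1.303 and 1.06 FPKM in IMA. In SPA they were 14.9, 15.6, 14.35, 13.8 and 13.1 FPKM, and in SA 12.8, 14.3, 13.7, 13.4 and 12.03 FPKM. Every subcutaneous library was above every intramuscular one, every IMA library was above every IMPA library, and SPA and SA overlapped. SPA was 33.7 times IMPA, a difference of −3.43 for IMPA against SPA (SE 0.06, limma adjusted p = 1.4e-13), and SA was 14.03 times IMA, a difference of −2.88 for IMA against SA (SE 0.08, limma adjusted p = 5.2e-13). WNT2 reached the minimum of 1 FPKM through the subcutaneous groups alone, so its depot calls were bound to occur and the depot levels are a description. IMA exceeded IMPA by 0.44 (SE 0.09, limma adjusted p = 0.0013). With the mapped share as a covariate this difference was −0.02 (adjusted p = 0.98). SA and SPA differed by −0.11 (SE 0.05, limma adjusted p = 0.12), which upper-quartile scaling moved past the threshold (−0.13, adjusted p = 0.04).

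**Figure D1:**
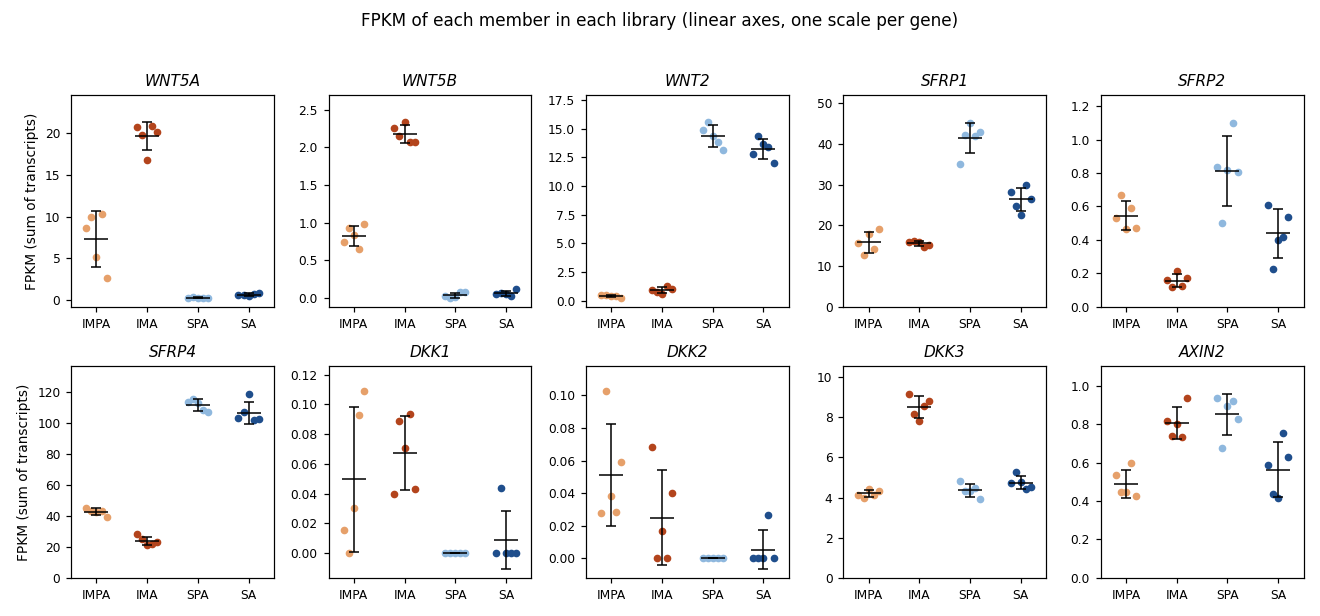
FPKM of the 10 members in each library, 1 panel per gene on its own linear axis, with points for the 5 libraries of IMPA, IMA, SPA and SA and black bars for the mean ± SD. WNT5A and WNT5B sit highest in IMA, WNT2, SFRP1 and SFRP4 highest in the subcutaneous groups, and DKK1 and DKK2 stay at or under 0.109 FPKM.

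All 19 WNT genes in the table were summed to see which ligand prevailed. WNT2 made up 85.7% ± 1.25 of this sum in SPA and 83.2% ± 1.71 in SA (SD, n = 5 each). WNT5A made up 58.5% ± 16.2 in IMPA and 70.3% ± 2.39 in IMA, with a range of 33.2% to 71.5% over the IMPA libraries. WNT9A took 11.6% to 36.8% in the IMPA libraries, at 2.13 ± 0.509 FPKM, and a mean of 5.96% in IMA, and WNT5B took 7.54% and 7.86%. Ligands with a mean of at least 1 FPKM numbered 2 in IMPA (WNT5A and WNT9A), 4 in IMA (WNT5A, WNT5B, WNT9A and WNT11), 2 in SPA (WNT2 and WNT9A) and 1 in SA (WNT2). WNT11, another non-canonical ligand and one singled out after its values were seen, ranged from 0.164 to 0.305 FPKM in IMPA and from 1.58 to 2.64 in IMA, against 0.348 to 0.545 in SPA and 0.254 to 0.491 in SA. The summed level of all WNT genes was 11.9 ± 2.87 FPKM in IMPA, 27.9 ± 1.84 in IMA, 16.8 ± 0.93 in SPA and 15.9 ± 1.03 in SA.

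**Figure D2:**
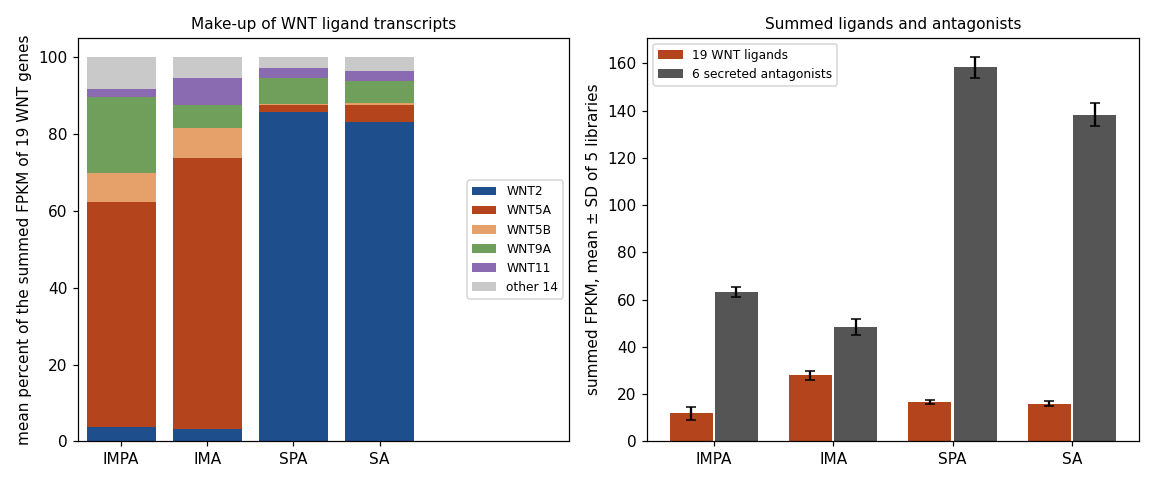
Left, mean percent of the summed FPKM of 19 WNT genes held by each ligand in the 4 groups; right, summed FPKM of the 19 WNT ligands and of the 6 antagonist members (bars, mean; error bars, SD of 5 libraries). WNT2 holds 85.7% and 83.2% of the ligand sum in SPA and SA, and WNT5A the largest share in IMPA and IMA, while the antagonist sum is highest in SPA at 158.3 FPKM.

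The 6 secreted antagonists among the members were led by SFRP4 and SFRP1, and both were higher in subcutaneous than in intramuscular cells at each stage. During induction SFRP4 fell in intramuscular cells and SFRP1 in subcutaneous cells. Of the 6 antagonist members, DKK3 was the one past the threshold that rose in intramuscular cells.

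SFRP4, a WNT-binding protein made by fat tissue, was the most abundant member in every group. It was at 45.3, 43.0, 42.5, 43.0 and 39.3 FPKM in IMPA and at 28.0, 25.2, 21.1, 22.1 and 23.2 FPKM in IMA. In SPA it was at 113.9, 115.6, 113.1, 108.5 and 107.1 FPKM, and in SA at 103.3, 107.3, 118.8, 101.7 and 102.4 FPKM. SPA and SA overlapped, both lay above all IMPA libraries, and IMPA lay above all IMA libraries. IMPA was 1.78 times IMA, and SFRP4 fell by 0.81 from IMPA to IMA (SE 0.07, limma adjusted p = 1.6e-06). SPA was 2.62 times IMPA (−1.37 for IMPA against SPA, SE 0.04, limma adjusted p = 8.1e-12) and SA 4.46 times IMA (−2.12 for IMA against SA, SE 0.07, limma adjusted p = 2e-12). The difference of −0.07 between SA and SPA did not pass (limma adjusted p = 0.23). It did pass without SA 3, the highest SA library (−0.11, limma adjusted p = 0.018), and after quantile normalization (−0.15, adjusted p = 0.0027).

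SFRP1, a WNT-binding relative of SFRP4 and in every group the next most abundant of the 6 antagonist members, was at 15.6, 12.6, 17.9, 14.3 and 19.1 FPKM in IMPA and at 15.9, 16.2, 15.9, 14.7 and 15.3 FPKM in IMA, so these groups overlapped. In SPA it was at 35.2, 42.3, 45.1, 41.9 and 42.9 FPKM, and in SA at 28.3, 24.7, 22.5, 29.9 and 26.5 FPKM, with no overlap between SPA, SA and the intramuscular groups. SPA was 1.57 times SA, and SFRP1 fell by 0.63 from SPA to SA (SE 0.08, limma adjusted p = 3.1e-05). Beside this fall, the summed proliferation markers were 45.1 to 52.8 FPKM in SPA and 175 to 204 FPKM in SA, and the part of that in the result was not tested. SPA was 2.61 times IMPA (−1.34 for IMPA against SPA, SE 0.10, limma adjusted p = 7.7e-08), and SA was 1.69 times IMA (−0.72 for IMA against SA, SE 0.07, limma adjusted p = 2.4e-07). The difference between IMA and IMPA was −0.01 (SE 0.09, limma adjusted p = 0.93), with a sign that depended on the scaling.

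SFRP2, a WNT-binding protein of stromal cells, stayed near or under 1 FPKM. It was at 0.530, 0.670, 0.467, 0.593 and 0.470 FPKM in IMPA and at 0.159, 0.117, 0.212, 0.124 and 0.170 FPKM in IMA, with no overlap. SPA ranged from 0.504 to 1.10 FPKM and SA from 0.226 to 0.610 FPKM, and these overlapped. SFRP2 was lower after induction in both depots, by 0.42 from IMPA to IMA (exact p = 0.00794) and by 0.33 from SPA to SA (exact p = 0.0238). The limma fit with a minimum of 0.1 FPKM gave adjusted p values of 1.4e-05 and 0.011. IMPA was below SPA by 0.22 (exact p = 0.0317), a difference that lost its exact call when any one of 8 of the 10 libraries was left out, and IMA was below SA by 0.31 (exact p = 0.00794). In the study SPA 1 and SA 5 lost a smaller share of reads in filtering than the other subcutaneous libraries, nearer to the intramuscular ones. Filtering loss thus went largely with depot. Leaving out both gave an SFRP2 difference of −0.35 from SPA to SA (exact p = 0.057).

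DKK3, a DKK family member whose action on WNT signals is less direct than that of DKK1, was at 4.14, 3.98, 4.43, 4.14 and 4.35 FPKM in IMPA and at 9.16, 8.15, 7.82, 8.58 and 8.81 FPKM in IMA. In SPA it was at 4.81, 4.32, 4.33, 4.47 and 3.92 FPKM and in SA at 4.71, 5.26, 4.76, 4.42 and 4.54 FPKM. IMA stood apart from the other 3 groups, which overlapped one another. IMA was 2.02 times IMPA, a rise of 0.87 (SE 0.05, limma adjusted p = 5.7e-08), and exceeded SA by 0.73 (SE 0.06, limma adjusted p = 3.8e-08). SA and SPA differed by 0.10 (limma adjusted p = 0.18), and IMPA and SPA by −0.04 (limma adjusted p = 0.44; −0.15 and 0.018 after quantile normalization). With the mapped share as a covariate the difference between SA and SPA was 0.34 (limma adjusted p = 0.015).

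DKK1 and DKK2, which block LRP5 and LRP6, were listed at or near 0 throughout. DKK1 had a highest value of 0.109 FPKM, in IMPA, and was at 0 in all 5 SPA and in 4 of 5 SA libraries. DKK2 had a highest value of 0.103 FPKM, also in IMPA, and was at 0 in the same numbers of subcutaneous libraries. DKK2 was above 0 in all 5 IMPA libraries and did not overlap SPA (a difference of 0.07, exact p = 0.00794). DKK1 was above SPA in IMPA by 0.07 (exact p = 0.0476, which leaving out any SPA library raised to 0.087) and above SA in IMA by 0.08 (exact p = 0.0238). Neither gene differed past the exact test's 0.05 between stages in a depot, at levels where the depth behind a value is unknown.

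The 6 antagonists together summed to 63.4 ± 2.17 FPKM in IMPA, 48.3 ± 3.39 in IMA, 158.3 ± 4.36 in SPA and 138.3 ± 4.77 in SA (SD, n = 5 each). SFRP4 held 67.3% of that sum in IMPA, 49.4% in IMA, 70.5% in SPA and 77.1% in SA, and DKK3 rose from 6.64% of it in IMPA to 17.7% in IMA. The antagonist sum was 5.66 ± 1.64 times the sum of all WNT ligands in IMPA, 1.74 ± 0.141 times in IMA, 9.47 ± 0.424 times in SPA and 8.71 ± 0.455 times in SA. The ranges of this ratio were 4.27 to 8.05 in IMPA and 1.52 to 1.87 in IMA. These sums are of RNA per length and carry no test. The antagonist sums leave out the secreted inhibitors outside the members, such as WIF1, IGFBP4 and DKKL1. WIF1 had means of 3.27 FPKM in IMPA, 2.77 in IMA, 58.4 in SPA and 36.2 in SA.

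AXIN2, a scaffold of the complex that degrades beta-catenin and itself a target of beta-catenin, moved in opposite directions in the 2 depots when its 3 transcripts were summed. It was at 0.534, 0.447, 0.448, 0.598 and 0.424 FPKM in IMPA and at 0.814, 0.736, 0.800, 0.732 and 0.937 FPKM in IMA, with no overlap. In SPA it was at 0.936, 0.675, 0.896, 0.921 and 0.828 FPKM, and in SA at 0.585, 0.436, 0.413, 0.756 and 0.629 FPKM, where SA 4 exceeded SPA 2. In the order of the means, SPA, IMA, SA and IMPA, every neighbouring pair overlapped, IMA and SA through SA 4. AXIN2 was higher in IMA than in IMPA by 0.28 (exact p = 0.00794) and lower in SA than in SPA by 0.25 (exact p = 0.0159). Without SPA 1 and SA 5 the subcutaneous difference kept its size but not its call (−0.25, exact p = 0.057). IMPA was below SPA by 0.31 (exact p = 0.00794) and IMA above SA by 0.21 (exact p = 0.0238). The limma fit with a minimum of 0.1 FPKM gave adjusted p values of 0.00045, 0.0088, 0.00014 and 0.01 in that order. These calls rested on the sum of 3 transcripts whose split varied from library to library. With XM_018063948.1 alone, the most abundant, the differences were 0.23 (exact p = 0.25) between IMA and IMPA, 0.16 (exact p = 0.43) between SA and SPA, −0.05 (exact p = 0.86) between IMPA and SPA and 0.03 (exact p = 0.84) between IMA and SA.

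**Figure D3:**
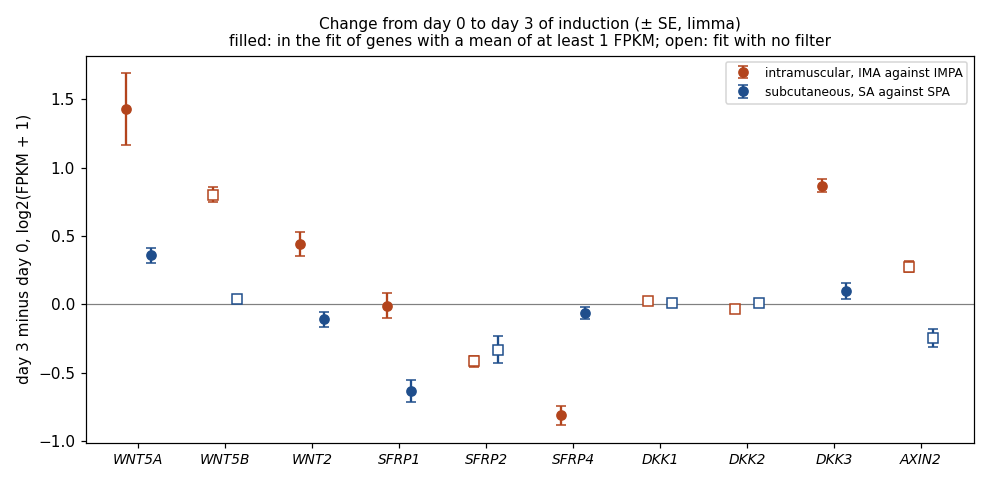
Change of each member from day 0 to day 3 on the log2(FPKM + 1) scale in intramuscular (IMA against IMPA) and subcutaneous cells (SA against SPA), with limma SE as error bars. Filled points come from the fit of genes with a mean of at least 1 FPKM and open squares from a fit with no filter, used for the 5 members under that level. AXIN2, the sum of 3 transcripts, lies above 0 in intramuscular and below 0 in subcutaneous cells. With its most abundant transcript alone the differences were 0.23 (exact p = 0.25) and 0.16 (exact p = 0.43).

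The counts over the members were read against all genes. From IMPA to IMA, 3 of the 5 members with a mean of at least 1 FPKM were called higher (WNT5A, WNT2 and DKK3) and 1 lower (SFRP4), where 19.9% of all 11432 tested genes were called higher and 40.2% lower. From SPA to SA, 1 was higher (WNT5A) and 1 lower (SFRP1), beside 26.1% and 26.0% of all genes. Of all 10 members, 7 did not overlap between IMA and IMPA and 2 between SA and SPA, beside 43.5% and 38.8% of the tested genes. In IMPA against SPA, 1 member was higher and 3 lower (all genes, 42.3% and 32.9%), and in IMA against SA, 2 were higher and 3 lower (29.0% and 43.4%). Between the depots 7 of 10 members did not overlap at day 0, beside 63.4% of the tested genes, and 7 of 10 did not overlap at day 3, beside 58.6%. The 10 members include 5 under the minimum of 1 FPKM, while the shares are of genes at or above it. The counts of members that did not overlap therefore stand beside an unlike set. WNT5A reached the minimum through the intramuscular groups alone and WNT2 through the subcutaneous groups alone, so that both had to differ between depots and their calls there add nothing to a count. The depot comparisons share their groups with the stage comparisons and are not independent of them.

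By the interaction test, the change from day 0 to day 3 differed between the depots for the 5 tested members. For 3 of them (SFRP1, SFRP4 and DKK3) the call held with the mapped share as a covariate. The mapped share did not overlap between the groups compared, so that fit cannot separate it from stage or depot. The interaction, (IMA − IMPA) − (SA − SPA), was 1.07 for WNT5A (SE 0.29, limma adjusted p = 0.0035), 0.55 for WNT2 (SE 0.11, adjusted p = 0.00025), 0.62 for SFRP1 (SE 0.13, adjusted p = 0.00028), −0.75 for SFRP4 (SE 0.09, adjusted p = 2.2e-07) and 0.77 for DKK3 (SE 0.07, adjusted p = 1.3e-08). Across all tested genes 20.7% had a positive and 34.6% a negative interaction past the threshold, so 37.5% of the calls were positive, and 48.4% after quantile normalization. With the limma fit at a minimum of 0.1 FPKM the interaction was 0.76 for WNT5B (adjusted p = 5.1e-09), 0.52 for AXIN2 (adjusted p = 2.1e-05) and −0.09 for SFRP2 (adjusted p = 0.51). These members were fitted neither with the mapped share as a covariate nor with a pseudocount of 0.1. WNT5B had means of 0.0389 FPKM in SPA and 0.0646 in SA, where the log2(FPKM + 1) scale understates a change. The part of the scale in its interaction was not tested. For WNT5A the result hung on the scale, since the folds of 2.68 and 2.18 were close and a pseudocount of 0.1 gave 0.65 (limma adjusted p = 0.13). Without IMPA 3 and IMPA 5 the WNT5A interaction was 0.60 (adjusted p = 4.6e-05), and with the mapped share as a covariate −0.69 (adjusted p = 0.35). With that covariate the WNT2 interaction was 0.27 (limma adjusted p = 0.48).

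**Figure D4:**
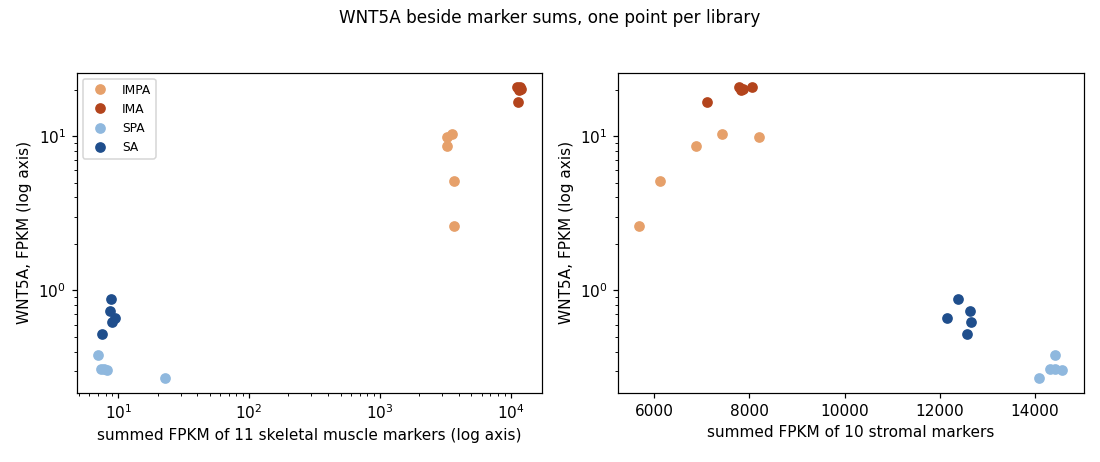
WNT5A in each library (FPKM, log axis) beside the summed FPKM of 11 skeletal muscle markers (left, log axis) and of 10 stromal markers (right, linear axis), coloured by group. The depots form separate clusters on both axes, and within IMPA the 2 libraries with the lowest WNT5A, at 2.61 and 5.12 FPKM, have the lowest stromal sums.

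The genes whose profile over the 20 libraries lay nearest to that of a member were found as those with the smallest root mean square difference of centred log2(FPKM + 1) values. For WNT5A they were LOC106502333 (0.31) and LDB3 (0.38), a gene of the muscle Z-disc, against a median of 1.69 over all tested genes. LDB3 had means of 2.97 FPKM in IMPA, 11.8 in IMA, 0.0341 in SPA and 0.0136 in SA. For WNT2 they were LOC108634619 and LOC102172072 (both 0.21, median 1.59), of which the first was listed at 0 in the mean of both intramuscular groups. For SFRP4 they were FAM198B (0.16) and DSE (0.17), an enzyme of dermatan sulfate synthesis, against a median of 0.92. These likenesses follow the group means and are a description.

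The rest of the WNT pathway was described by 120 listed genes, of which 116 were in the table and 70 were tested. From IMPA to IMA 15 were called higher and 27 lower, 21.4% and 38.6% of the 70, which is near the 19.9% and 40.2% of all genes. From SPA to SA 10 were higher and 31 lower, 14.3% and 44.3%, beside 26.1% and 26.0% of all genes. The median change was −0.12 in both (all genes, −0.09 and −0.01). With the mapped share as a covariate, 1 of the 70 was called from IMPA to IMA and 23 from SPA to SA. Of all genes 6.39% and 36.4% were then called. The changes of single pathway genes below are given without that covariate. In IMPA against SPA 27 were higher and 30 lower (38.6% and 42.9%, all genes 42.3% and 32.9%), and in IMA against SA 26 higher and 29 lower (37.1% and 41.4%, all genes 29.0% and 43.4%). The interaction was positive for 24 and negative for 15 (34.3% and 21.4%, all genes 20.7% and 34.6%). Genes that reached the minimum of 1 FPKM through one depot alone are within these depot counts, which therefore support nothing. The counts per list below stand beside these same shares of all genes.

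WLS, which releases WNT ligands, and WIF1, which binds them, were higher in subcutaneous cells, as were WNT2, SFRP1 and SFRP4. WLS, the carrier of WNT proteins out of the cell, was at 34.4 ± 1.18 FPKM in IMPA, 44.4 ± 2.16 in IMA, 146 ± 5.54 in SPA and 82.4 ± 2.08 in SA. It rose by 0.36 in intramuscular cells (limma adjusted p = 1.6e-05) and fell by 0.82 in subcutaneous ones (limma adjusted p = 1.2e-09), an interaction of 1.18 (adjusted p = 7.6e-14). WIF1, a secreted inhibitor that binds WNT proteins, was at 3.27 ± 0.666 and 2.77 ± 0.435 FPKM in IMPA and IMA and at 58.4 ± 4.71 and 36.2 ± 1.82 in SPA and SA. Its difference was −3.81 for IMPA against SPA (limma adjusted p = 2.1e-12) and it fell by 0.67 from SPA to SA (limma adjusted p = 8.8e-07). IGFBP4, also counted among secreted inhibitors, rose by 0.60 in intramuscular cells (limma adjusted p = 4.8e-05) and fell by 0.54 in subcutaneous ones (adjusted p = 2.5e-05). Of the 3 tested inhibitors outside the members, 2 rose in intramuscular cells (IGFBP4 and DKKL1), and in subcutaneous cells 1 rose and 2 fell.

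R-spondins strengthen WNT signals at the receptor, and RSPO1 and RSPO3 were higher in subcutaneous cells. RSPO1 was at 0.730 FPKM in IMPA, 0.575 in IMA, 4.82 in SPA and 2.72 in SA, and RSPO3 at 0.561, 0.420, 3.497 and 2.35 FPKM in the same order. RSPO1 fell by 0.65 and RSPO3 by 0.42 from SPA to SA (limma adjusted p = 4.5e-07 and 1.4e-05). RSPO2, under the minimum and singled out after its values were seen, lay the other way, at 0.223 to 0.539 FPKM in IMPA and 0.0677 to 0.132 in IMA against 0 to 0.0540 in SPA and 0 to 0.04755 in SA. Of the 4 tested genes of this module, none rose and 2 fell in each stage comparison. RSPO1 and RSPO3 reached the minimum of 1 FPKM through the subcutaneous groups alone, so their depot calls were bound to occur and are not counted.

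Of 13 tested receptors and co-receptors, 3 rose and 10 fell from IMPA to IMA, and 2 rose and 8 fell from SPA to SA, where 40.2% and 26.0% of all genes fell. LRP6 fell by 0.90 in subcutaneous cells, from 39.1 ± 0.963 to 20.4 ± 1.17 FPKM (limma adjusted p = 2.9e-09), and FZD4 by 1.14, from 17.4 ± 1.16 to 7.34 ± 0.287 FPKM (adjusted p = 2.9e-09). In intramuscular cells ROR1, a receptor for WNT5A, fell by 0.79 (limma adjusted p = 0.00015) while WNT5A rose, and FZD8 fell by 0.71 (adjusted p = 8.5e-07). ROR1 had means of 2.22 FPKM in IMPA and 0.854 in IMA. ROR2, the more abundant of these receptors at 13.1 and 11.8 FPKM, fell by 0.15 (limma adjusted p = 0.026). FZD9 and KREMEN1, the latter a partner of DKK proteins, were higher in IMPA than in SPA by 2.56 and 2.20 (limma adjusted p = 4.3e-12 and 1.9e-11). FZD9 reached the minimum of 1 FPKM through the intramuscular groups alone, so its depot call was bound to occur. Receptor differences between depots went both ways, with 7 called higher (FZD9 included) and 4 lower in IMPA against SPA and 7 higher (FZD9 included) and 5 lower in IMA against SA.

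Among 17 tested genes of the destruction complex and its transducers, 2 rose and 7 fell from IMPA to IMA, and none rose and 9 fell from SPA to SA. The 7 that fell in intramuscular cells were 41.2% of the list, near the 40.2% of all genes, and the 9 in subcutaneous cells 52.9%, beside 26.0%. AXIN1, the close relative of AXIN2, fell by 0.53 in intramuscular cells (limma adjusted p = 2.3e-05) and by 0.32 in subcutaneous cells (adjusted p = 0.00046). Of 8 tested nuclear factors, 1 rose and 2 fell in intramuscular and 1 rose and 3 fell in subcutaneous cells. TCF7L2, a DNA-binding partner of beta-catenin, fell by 0.44 from IMPA to IMA (limma adjusted p = 0.0031), and the co-repressor TLE4 was higher in IMPA than in SPA by 1.43 (adjusted p = 7e-11). CTNNB1, beta-catenin itself, was lower in IMA than in SA by 0.43 (limma adjusted p = 9.3e-07).

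Of 9 tested beta-catenin target genes, 2 rose and 3 fell from IMPA to IMA, and 1 rose and 2 fell from SPA to SA. CD44, a cell surface receptor for hyaluronan, rose by 0.75 in intramuscular cells (limma adjusted p = 0.00031). The target genes therefore did not all follow AXIN2, and TWIST1, for example, rose in subcutaneous cells by 0.18 (limma adjusted p = 0.005).

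Of 14 tested genes of the non-canonical arm, 4 rose and 4 fell in intramuscular cells and 5 rose and 4 fell in subcutaneous cells. NFATC4, a factor switched on by calcium, rose by 0.62 from IMPA to IMA (limma adjusted p = 9.8e-06), and the polarity gene SCRIB fell by 0.41 (adjusted p = 7.1e-06). PRICKLE2, a planar polarity gene, differed by −2.31 between IMPA and SPA (limma adjusted p = 2.2e-13), and DAAM1, which links Dishevelled to actin, was higher by 1.34 (adjusted p = 4.1e-10). In subcutaneous cells DAAM1 rose by 0.62 and PRICKLE2 fell by 0.76 during induction (limma adjusted p = 3.1e-06 and 3.6e-08).

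**Figure D5:**
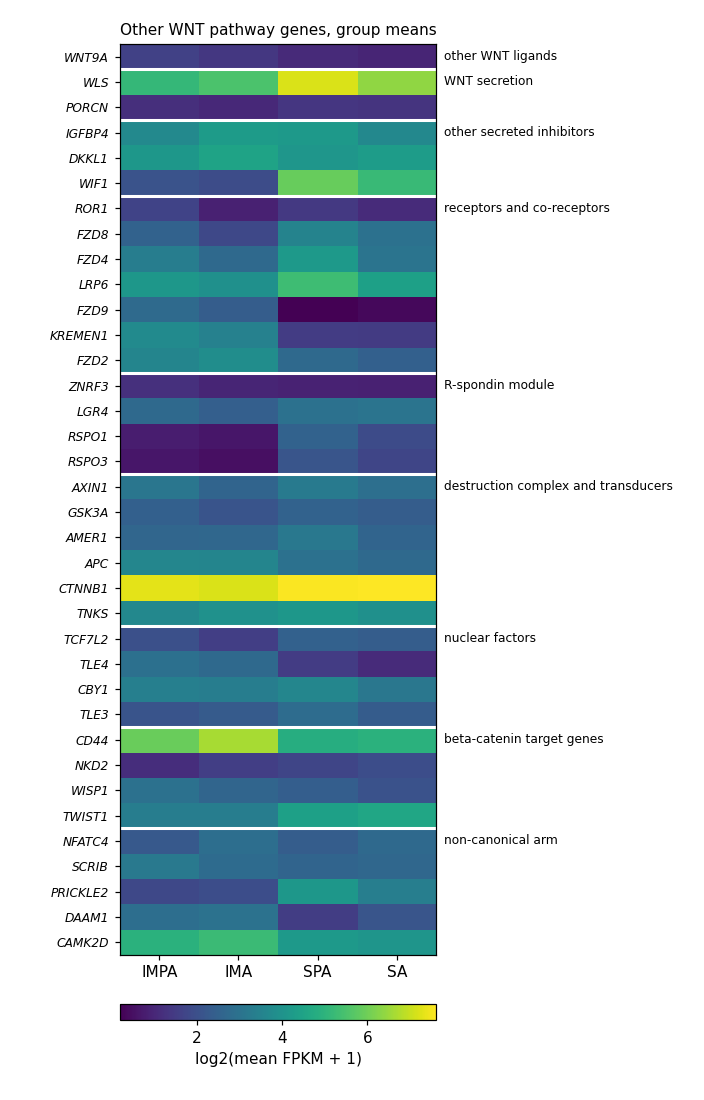
Mean level of other pathway genes named by the rule in the 4 groups, as log2(mean FPKM + 1) in colour, with genes ordered by list. WLS, WIF1, RSPO1, RSPO3 and PRICKLE2 are highest in SPA, and FZD9, KREMEN1 and TLE4 are higher in IMPA and IMA than in SPA and SA.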

How the data were processed

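Stranded libraries of total RNA from 20 cultures were sequenced by the authors. Per the study's methods and the submitters' processing notes, reads were aligned to the goat assembly with HISAT2 2.0.4, and the deposited FPKM values, 1 per transcript and library, were calculated with StringTie 1.3.1, Ballgown and Cuffdiff. No counts were used. FPKM is scaled to mapped reads, so a few abundant transcripts in a library can shift the others, and a single transcript held 19.95 to 29.07% of all FPKM.

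Transcripts were summed per symbol. Genes with a mean of at least 1 FPKM were tested as log2(FPKM + 1) with limma 3.58.1 (variance trend, R 4.3.3), the 2 groups compared in each fit and all 20 libraries for the interaction. Benjamini-Hochberg adjustment ran over 11432 genes, with 0.05 as the threshold. Members under the minimum were compared by two-sided exact permutation tests, 20 in all and unadjusted, and with a limma fit at 0.1 FPKM, adjusted over 13809 genes. The fits were tested on simulated data. Upper-quartile and quantile scaling, the pseudocount, the filter, the variance estimate, the mapped share, single transcripts, the replicate number as a block and leaving out libraries were tried as alternatives. Leaving out IMPA 3 and IMPA 5 was chosen after seeing the values.

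Groups were taken from the sample titles. The study calls the 5 libraries of a group biological replicates, but the goat behind a replicate number is not given in the sources used here, so libraries were not paired and p values measure the spread between libraries. The mapped share came from the study's alignment summary. The lists of 120 pathway genes and the marker lists were written, and the members were proposed, with earlier results of these data known. Named pathway genes were at most 2 per list and comparison, those called with the largest absolute change (1 such gene is not reported here), and likeness was given for the 3 tested members with the widest range of group means. Figures were drawn with matplotlib 3.10.9 in Python 3.11.15.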

Additional observations from a re-analysis of the deposited data

Results flagged for a closer look

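In IMA the WNT5A level of library 3, 16.8 FPKM, stood below the other 4, its gap to the nearest being 0.759 of the range of the group. IMA 3 also had the highest mapped share and the lowest stromal marker sum (7116 FPKM) of IMA. The same held in SPA for SPA 1, the lowest there for WNT5A (stromal sum 14090 FPKM). In SA the library with the highest mapped share, SA 2, was not the lowest for WNT5A. The cause was not tested. In SA a single library was above 0 for DKK1 (SA 2, 0.0437 FPKM) and for DKK2 (SA 4, 0.0267 FPKM), which gives a gap of 1.0 of the range for each. Of 40 member and group pairs 38 had any spread, and chance marks about 1 group in 20 in this way.

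The change from day 0 to day 3 differed between the depots by 1.07 for WNT5A, 0.55 for WNT2, 0.62 for SFRP1, −0.75 for SFRP4 and 0.77 for DKK3 on the log2(FPKM + 1) scale (limma interaction, adjusted p of at most 0.0035). A pseudocount of 0.1 gave 0.65 for WNT5A (limma adjusted p = 0.13). With the mapped share as a covariate the interaction was −0.69 for WNT5A and 0.27 for WNT2 (limma adjusted p = 0.35 and 0.48). At a minimum mean of 0.1 FPKM the change differed by 0.76 for WNT5B and 0.52 for AXIN2 (limma adjusted p = 5.1e-09 and 2.1e-05). Neither was fitted with that pseudocount or covariate. As the sum of its 3 transcripts, AXIN2 was higher in all 5 IMA than in all 5 IMPA libraries and lower in the mean of SA than of SPA. Its most abundant transcript alone differed by 0.23 between IMA and IMPA (exact p = 0.25) and by 0.16 between SA and SPA (exact p = 0.43).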

How the results depend on the processing

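The share of mapped reads as a covariate moved the results most: 2 members, 1 other pathway gene and 6.39% of all genes were then called in IMA against IMPA (4, 42 and 60.1% without it), 23 pathway genes in SA against SPA (41), 22 pathway genes and 20.4% of all genes in IMPA against SPA (57 and 75.1%), and 3 members, 11 pathway genes and 17.9% of all genes for the interaction (5, 39 and 55.3%). Under it WNT5A and WNT2 turned in IMA against IMPA (−0.84 and −0.0222), SFRP1 there was 0.80, WNT2 and SFRP4 in SA against SPA were 0.0559 and 0.0473, and the WNT5A interaction was −0.69. As the mapped share does not overlap between the groups compared, it cannot be told apart from stage or depot, and the cause was not tested. A minimum of 0.1 FPKM raised the members called to 7, 4, 7 and 8 in IMA against IMPA, SA against SPA, IMPA against SPA and IMA against SA (4, 2, 4 and 5), and no filter to 7, 4, 8 and 9, since more members entered. With no filter 37.6%, 30.2% and 35.6% of all genes were called in IMA against IMPA, SA against SPA and the interaction. Transcripts in place of gene sums gave 25 pathway genes in each of these 3, with 32.6%, 25.9% and 31.0% of all transcripts, 46.3% in IMA against SA (72.4%), and 1 member in SA against SPA, as did all 4 groups in the fit. The SFRP1 difference between IMA and IMPA had no stable sign: it was 0.0254 after upper-quartile scaling, 0.0519 after quantile normalization, 0.14 without IMPA 3 and IMPA 5, and −0.0847 to 0.0557 leaving out single libraries. The most abundant transcript alone turned AXIN2 in SA against SPA (0.16). Leaving out single libraries gave 4, 2 to 3, 4, 5 and 5 members called.

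Whether replicate numbers name the same goat is unknown. Same-numbered libraries correlated in their deviations at 0.042 to 0.121 in IMA against IMPA, where 3 of 5 correlated best with their own number, and at −0.242 to 0.122 in SA against SPA, where 1 did. Not every pair passed 0.1 in any comparison, so the libraries were left unpaired. With the replicate number as a block, 4, 2, 4, 5 and 5 members were called in the 5 comparisons. Depth behind a value is unknown and limits the members under 1 FPKM most.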
